A study of Mus musculus with 16 samples.

Results

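The liver X receptors (LXRs) and a set of genes known as their targets or as parts of cholesterol efflux were followed through 8 conditions of mouse bone marrow-derived macrophages (BMDMs). The 10 genes were taken by symbol from a table of 22287 genes: the receptors Nr1h3 and Nr1h2, the efflux genes Abca1, Abcg1 and Apoe, the lipoprotein genes Pltp and Lpl, and Mylip, Ch25h and Lpcat3. All 10 were found, and all 10 passed edgeR's expression filter, as did 12514 genes in all. Bone marrow of C57BL/6J mice aged 8 weeks was cultured for 7 days with 20 ng/ml granulocyte-macrophage colony-stimulating factor (GM-CSF, giving GM-BMDMs) or 50 ng/ml macrophage colony-stimulating factor (M-CSF, giving M-BMDMs). Each was grown on dishes treated for tissue culture (TC) or on untreated dishes (noTC), and then received vehicle or 100 ng/ml lipopolysaccharide (LPS) for 3 h. Groups are named by growth factor and dish (GM-TC or M-noTC, for example), with LPS added to the name after challenge. There were 2 libraries of poly(A) RNA in each of the 8 groups. No group carried an altered gene.

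LXRs are nuclear receptors that bind oxidised forms of cholesterol and sit on DNA together with a retinoid X receptor. When sterols are plentiful they switch on genes that load cholesterol onto lipoprotein particles, that limit its uptake and that change the fatty acids of membranes. Macrophages take up much cholesterol from dead cells and lipoproteins, and inflammatory signals are known to alter this programme.

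Total counts per library lay between 17527802 and 31458363, so that 3 counts, the floor used here, correspond to between 0.0954 and 0.171 counts per 1000000 (CPM), counting error only. edgeR's TMM factors, which set the bulk of genes level between libraries, were applied to CPM values unless the text gives scaling by library size. The floor, the cell type markers and the percentages of a mean in other libraries, here and below, were scaled by library size alone. Steady state libraries had factors of 1.11 to 1.39, and those given LPS had factors of 0.778 to 0.842. With scaling by library size alone, the LPS fold change of the median gene (log2) moved to -0.53 in GM-TC and -0.54 in GM-noTC, with -0.83 for M-TC and -0.73 for M-noTC, that of GM over M at steady state to -0.29 on each dish, and the interaction of growth factor and LPS to 0.30 on TC and 0.19 on noTC dishes. Fold changes are therefore relative to the bulk of genes. All 8 macrophage markers examined, Adgre1 and Csf1r among them, were above 1 CPM in every group, and Itgax, a marker of GM-CSF cultures, had a mean of 1026 CPM in GM-TC and 21.6 CPM in M-TC. Of cell types that also use the genes studied, the 6 adipocyte markers summed to at most 0.230 CPM in a library and the 5 hepatocyte markers to at most 0.111 CPM. The 6 heart muscle markers summed to between 22.2 and 77.9 CPM in the GM-TC and M-TC libraries and to at most 0.633 CPM elsewhere. In the noTC libraries at steady state, genes that are high elsewhere and nearly absent on TC dishes were present at 0.675% (GM, 15 genes) and 0.600% (M, 19 genes) of their mean in 10 other libraries. These are bulk libraries, in which fewer cells of a type and less RNA per cell cannot be told apart. The replicates of GM-TC stood furthest apart, with a chi-square of their counts over its degrees of freedom of 12.9, against 1.92 to 5.28 in the other groups, and GM-TC enters comparisons of LPS, growth factor and dish. The p-values measure the spread between these libraries, and an exact permutation test of 2 against 2 could not give a two-sided p below 0.333.

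**Figure D1:**
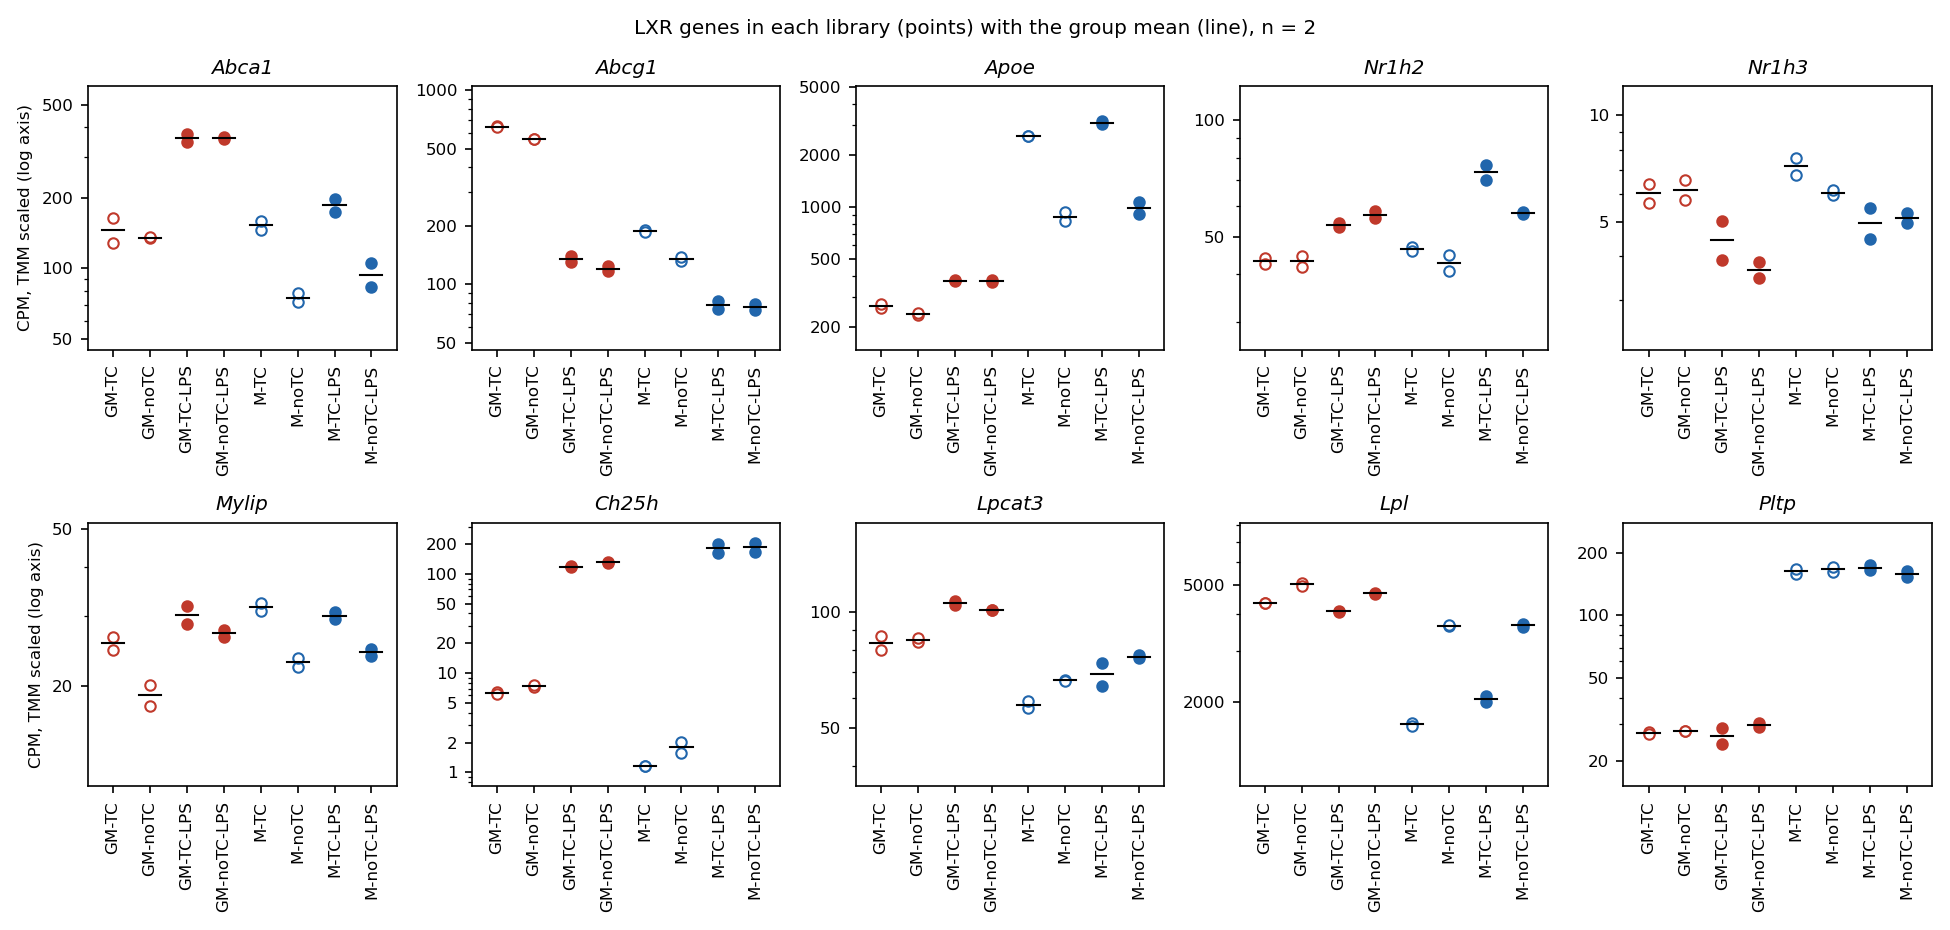
TMM-scaled CPM (log axis) of the 10 genes in each of the 16 libraries, by group, with GM in red, M in blue, vehicle as open and LPS as filled points, and the mean of 2 libraries as a line. Ch25h spans 1.16 to 206 CPM and separates by LPS, Pltp and Apoe separate by growth factor, and Nr1h2, Nr1h3, Mylip and Lpcat3 stay within a factor of 2 between group means.

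Levels per kilobase were divided by all annotated exon bases of a gene, merged over its transcripts. That length need not be the length of the transcripts made, so comparisons between genes are rough. The levels in GM-TC ran from Lpl at 414 ± 0.906 CPM per kb (SD, n = 2), Apoe at 124 ± 4.39 and Abcg1 at 89.0 ± 1.38 down to Ch25h at 4.55 ± 0.200 and Nr1h3 at 2.40 ± 0.210. In M-TC the highest was Apoe, at 1207 ± 1.49 CPM per kb (SD, n = 2), followed by Lpl at 161 ± 3.33 and Pltp at 63.6 ± 2.50, and the lowest was Ch25h at 0.835 ± 0.00162. Nr1h2 was the more abundant receptor, with 12.9 ± 0.344 CPM per kb in GM-TC and 13.8 ± 0.243 in M-TC (SD, n = 2). The highest group mean of a gene exceeded its lowest by 160-fold for Ch25h, 13-fold for Apoe, 8.54-fold for Abcg1, 6.39-fold for Pltp, 4.79-fold for Abca1 and 3.00-fold for Lpl. For Nr1h3, Lpcat3, Nr1h2 and Mylip it did so by 1.97-fold, 1.83-fold, 1.72-fold and 1.67-fold. For Pltp, 495 exon bases overlap Ctsa and for Lpcat3, 334 overlap Emg1, each on the opposite strand. The counting is not stated to use strand, so reads there cannot be assigned with certainty.

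The first question was how LPS changed the LXR genes in each kind of macrophage. The pair of cholesterol exporters moved in opposite directions. Abca1, which loads lipid-poor apolipoprotein A1 with cholesterol and phospholipid, rose in GM-BMDMs, while Abcg1, which passes cholesterol to mature high-density lipoprotein, fell in all 4 kinds of culture. Ch25h, the enzyme that makes 25-hydroxycholesterol, rose in all 4, and from a lower start in M-BMDMs. Among the 10 genes, 6 rose and 2 fell in GM-TC, 6 rose and 3 fell in GM-noTC, 6 rose and 2 fell in M-TC, and 5 rose and 1 fell in M-noTC (adjusted p under 0.05 by edgeR's quasi-likelihood test). Of all tested genes, 67%, 67.7%, 74% and 72.3% were called in these comparisons (32.8%, 33.6%, 37.6% and 36.4% higher upon LPS, and 34.2%, 34%, 36.4% and 35.9% lower), so calls among the LXR genes were about as frequent as elsewhere. The median log2 fold changes of the 10 genes were 0.28, 0.33, 0.27 and 0.13, beside -0.05, -0.03, -0.01 and -0.01 over all tested genes. With library size alone, 2 rose and 7 fell in GM-TC, 2 rose and 5 fell in GM-noTC, and 1 rose and 9 fell in each of M-TC and M-noTC. The share of falls among all calls then went from 51.1%, 50.3%, 49.1% and 49.7% to 78.5%, 79.5%, 80.9% and 81%.

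Of the receptors, Nr1h2 (LXRβ) is made in most cell types. It had 44.1 and 42.4 CPM in GM-TC, 54.2 and 52.9 in GM-TC-LPS, 47.0 and 45.8 in M-TC, and 76.7 and 70.0 in M-TC-LPS. The LPS libraries were above the vehicle libraries in both. Its log2 fold changes relative to the bulk of genes were 0.31 ± 0.07 (SE) for GM-TC, 0.40 ± 0.07 for GM-noTC, 0.66 ± 0.07 for M-TC and 0.43 ± 0.07 for M-noTC (adjusted p = 0.000402, 1.58e-05, 6.07e-09 and 4.74e-06 by edgeR), but with library size alone all 4 turned negative, between -0.11 and -0.30. Nr1h3 (LXRα), which is made in fewer tissues, macrophages and liver among them, was at 5.66 and 6.40 CPM in GM-TC, 3.88 and 5.01 in GM-TC-LPS, 5.75 and 6.54 in GM-noTC, and 3.46 and 3.83 in GM-noTC-LPS. No LPS library of GM reached a vehicle library of its dish. It fell in 3 of the 4 cultures, with log2 fold changes of -0.44 ± 0.16 in GM-TC, -0.75 ± 0.16 in GM-noTC and -0.52 ± 0.16 in M-TC (SE, adjusted p = 0.0231, 0.000374 and 0.00527 by edgeR), and was -0.24 ± 0.15 in M-noTC (adjusted p = 0.167), or -0.96 and called with library size alone. The call in GM-TC was lost with DESeq2 (adjusted p = 0.0906), and without GM-TC-LPS replicate 1 (-0.27, adjusted p = 0.229) or GM-TC replicate 2 (-0.34, adjusted p = 0.161). That in M-TC was lost without M-TC-LPS replicate 2 (-0.39, adjusted p = 0.0711).

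Abca1 (ENSMUSG00000015243) had 164 and 128 CPM in GM-TC, 346 and 375 in GM-TC-LPS, 135 and 136 in GM-noTC, and 355 and 364 in GM-noTC-LPS. Every LPS library of GM lay above every vehicle library. In M-BMDMs the change was small, from 145 and 160 to 198 and 175 CPM on TC dishes and from 71.9 and 78.3 to 105 and 83.4 CPM on noTC dishes. The log2 fold changes were 1.3 ± 0.10 in GM-TC and 1.41 ± 0.10 in GM-noTC (SE, adjusted p = 7.8e-11 and 1.89e-11 by edgeR). In M-TC and M-noTC they were 0.29 ± 0.10 and 0.32 ± 0.10 (SE, adjusted p = 0.0115 and 0.00707 by edgeR), and with library size alone they were -0.54 and -0.40. DESeq2 gave an adjusted p of 0.0678 in M-TC, where leaving out M-TC replicate 1 or M-TC-LPS replicate 1 also ended the call (adjusted p = 0.12 and 0.163), as did leaving out M-noTC replicate 1 or M-noTC-LPS replicate 1 in M-noTC (adjusted p = 0.058 and 0.265). LPS changed Abca1 more in GM than in M by 1.02 ± 0.14 on TC dishes and 1.09 ± 0.14 on noTC dishes (log2, SE, adjusted p = 2.98e-06 and 1.85e-06 for the interaction in edgeR). Of all genes, 41.1% and 36.2% were called in these interactions, and of the 10 LXR genes 7 and 5. The share of negative differences among all calls was 56.8% and 53.4%, and 21.1% and 26.8% with library size alone, under which 5 of the 10 genes were called positive and 2 negative on each dish.

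Among the bases before the annotated starts, Abca1 held the closest match of the genes studied to the LXR element, a direct repeat of AGGTCA with NNNN between the copies. Sequences of 250 bases upstream, from RefSeq on GRCm38.p6, were found for 8 of the 10 genes at 11 starts; none was searched for Abcg1 and Lpl. The repeat was looked for on both strands, with 12 letters compared. Abca1 is shown for its match, Ch25h for its response to LPS and Pltp for its difference between the growth factors, each 5′ to 3′ on the gene's strand with the closest match in capitals.
Abca1, chr4:53159896-53160145, minus strand: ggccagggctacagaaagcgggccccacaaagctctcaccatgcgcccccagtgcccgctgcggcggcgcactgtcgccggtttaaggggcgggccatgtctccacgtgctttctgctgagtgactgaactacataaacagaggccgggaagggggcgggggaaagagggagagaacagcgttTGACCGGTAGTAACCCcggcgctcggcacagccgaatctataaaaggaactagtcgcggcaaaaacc
Ch25h, chr19:34475149-34475398, minus strand: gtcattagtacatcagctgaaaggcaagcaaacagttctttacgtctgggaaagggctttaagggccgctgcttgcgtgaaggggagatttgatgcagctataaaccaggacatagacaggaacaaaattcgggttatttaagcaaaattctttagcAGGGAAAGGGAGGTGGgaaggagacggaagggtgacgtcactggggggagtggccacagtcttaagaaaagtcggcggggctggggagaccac
Pltp, chr2:164857709-164857958, minus strand: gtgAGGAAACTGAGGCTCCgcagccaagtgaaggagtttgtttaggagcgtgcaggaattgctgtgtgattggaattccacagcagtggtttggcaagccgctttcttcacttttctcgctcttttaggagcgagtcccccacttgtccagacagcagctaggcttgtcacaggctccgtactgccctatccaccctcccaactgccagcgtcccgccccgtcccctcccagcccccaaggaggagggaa
The Abca1 match had 3 mismatches, on the opposite strand at positions -67 to -52 from the start, and 18.5% of 32851 promoters held one as close or closer. Ch25h, Nr1h3, Lpcat3 and Nr1h2 had 4 mismatches at their closest, as did 2 of the 3 Apoe starts, and 70.6% of promoters did as well. Pltp had 5 and Mylip 6, which 99.5% and 100% of promoters reached. Abca1 also held the E-box CACGTG, a palindrome, at -147, which 6.02% of promoters held and none of the other starts did. These matches describe letters and are not evidence of binding.

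Abcg1 (ENSMUSG00000024030) had 657 and 643 CPM in GM-TC, 139 and 131 in GM-TC-LPS, 558 and 561 in GM-noTC, and 116 and 124 in GM-noTC-LPS. It had 190 and 187 CPM in M-TC, 75.0 and 82.4 in M-TC-LPS, 131 and 138 in M-noTC, and 78.8 and 73.5 in M-noTC-LPS. All vehicle libraries of a culture lay above its LPS libraries. The log2 fold changes were -2.27 ± 0.06 and -2.22 ± 0.06 for the pair of GM cultures and -1.26 ± 0.06 and -0.83 ± 0.06 for the M cultures, TC first (SE, adjusted p = 2.62e-19, 4.1e-19, 1.16e-14 and 2.54e-11 by edgeR). The fall was larger in GM than in M, with differences of -1.0 ± 0.08 on TC and -1.39 ± 0.08 on noTC dishes (SE, adjusted p = 1.45e-09 and 1.04e-11 by edgeR). Levels thereby drew closer, and the range of Abcg1 over group means went from 135 to 650 CPM at steady state to 76.1 to 135 CPM upon LPS.

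Apoe, the apolipoprotein that macrophages secrete as a cholesterol acceptor, had log2 fold changes of 0.50 ± 0.06, 0.63 ± 0.06, 0.27 ± 0.06 and 0.18 ± 0.06 upon LPS in GM-TC and GM-noTC and then in M-TC and M-noTC (SE, adjusted p = 6.56e-07, 1.5e-08, 0.000651 and 0.0156 by edgeR), which with library size alone became 0.01, 0.12, -0.56 and -0.55. The call in M-noTC ended in a fit to its own libraries (adjusted p = 0.0611) and without M-noTC replicate 1 or M-noTC-LPS replicate 2 (0.11 and 0.06, adjusted p = 0.221 and 0.475). The response was greater in GM than in M by 0.46 ± 0.09 on noTC dishes and by 0.23 ± 0.09 on TC dishes (SE, adjusted p = 0.000338 and 0.0455 by edgeR), and the latter ended in 7 of 8 fits that left out 1 library (adjusted p up to 0.142). Pltp, which transfers phospholipid between lipoproteins, was not called upon LPS in any culture, with log2 fold changes of -0.03 ± 0.08, 0.10 ± 0.08, 0.05 ± 0.06 and -0.07 ± 0.06 (SE, adjusted p = 0.719, 0.28, 0.448 and 0.291 by edgeR). With library size alone it was called lower in all 4, between -0.41 and -0.80. Lpl, the lipase that frees fatty acids from triglyceride-rich particles, rose by 0.29 ± 0.04 in M-TC (SE, adjusted p = 2.17e-06 by edgeR), a change of -0.54 with library size alone. It was 0.00 ± 0.04 in M-noTC (adjusted p = 0.999), -0.09 ± 0.04 in GM-TC (adjusted p = 0.0551) and -0.10 ± 0.04 in GM-noTC (adjusted p = 0.0325 by edgeR), the last of which was called in none of the 4 fits that left out 1 library (adjusted p = 0.0659 to 0.338).

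Ch25h (ENSMUSG00000050370) had 6.51 and 6.12 CPM in GM-TC, 117 and 121 in GM-TC-LPS, 7.34 and 7.61 in GM-noTC, and 129 and 133 in GM-noTC-LPS. In M-BMDMs it went from 1.16 and 1.16 to 164 and 199 CPM on TC dishes and from 2.02 and 1.56 to 165 and 206 CPM on noTC dishes. Every LPS library lay above every vehicle library, while the M-TC-LPS and M-noTC-LPS libraries overlapped. The lowest count in a library was 29. The log2 fold changes were 4.24 ± 0.12 for GM-TC, 4.13 ± 0.12 for GM-noTC, 7.28 ± 0.15 for M-TC and 6.73 ± 0.14 for M-noTC (SE, adjusted p = 2.34e-18, 1.35e-18, 4.78e-21 and 2.72e-21 by edgeR). The log2 fold change in GM minus that in M was -3.05 ± 0.25 on TC and -2.59 ± 0.21 on noTC dishes (SE, adjusted p = 2e-09 and 1.47e-09 by edgeR). Steady state levels on noTC dishes exceeded those on TC dishes by 1.35% (GM) and 0.85% (M) of the mean in the 10 other libraries, beside the 0.675% and 0.600% given above, and subtracting that share changed no call among the 10 genes.

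Lpcat3, which puts polyunsaturated fatty acids into membrane phospholipids, had log2 fold changes of 0.34 ± 0.06, 0.26 ± 0.06, 0.27 ± 0.06 and 0.20 ± 0.06 upon LPS, in the order used for Apoe (SE, adjusted p = 5.25e-05, 0.000808, 0.000921 and 0.00664 by edgeR), all of which were negative with library size alone, between -0.14 and -0.56. The rise in M-TC was not called without M-TC-LPS replicate 1 (adjusted p = 0.0536). Its interactions of growth factor and LPS were not called (0.08 ± 0.09 and 0.06 ± 0.09, adjusted p = 0.541 and 0.659 by edgeR), but with library size alone they were 0.42 and 0.28 and both called (adjusted p = 0.000626 and 0.0168). Mylip, a ubiquitin ligase that limits cholesterol uptake, was at 17.8 and 20.1 CPM in GM-noTC and 26.5 and 27.7 in GM-noTC-LPS, without overlap. Its log2 fold changes were 0.52 ± 0.08 in GM-noTC and 0.25 ± 0.08 in GM-TC (SE, adjusted p = 8.77e-06 and 0.00949 by edgeR), or 0.01 and -0.23 with library size alone, and -0.07 ± 0.08 and 0.08 ± 0.08 in M-TC and M-noTC (adjusted p = 0.404 and 0.376), where library size alone gave called changes of -0.90 and -0.64. Its call in GM-TC ended without GM-TC replicate 2 or GM-TC-LPS replicate 2 (0.19 and 0.17, adjusted p = 0.0827 and 0.15).

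**Figure D2:**
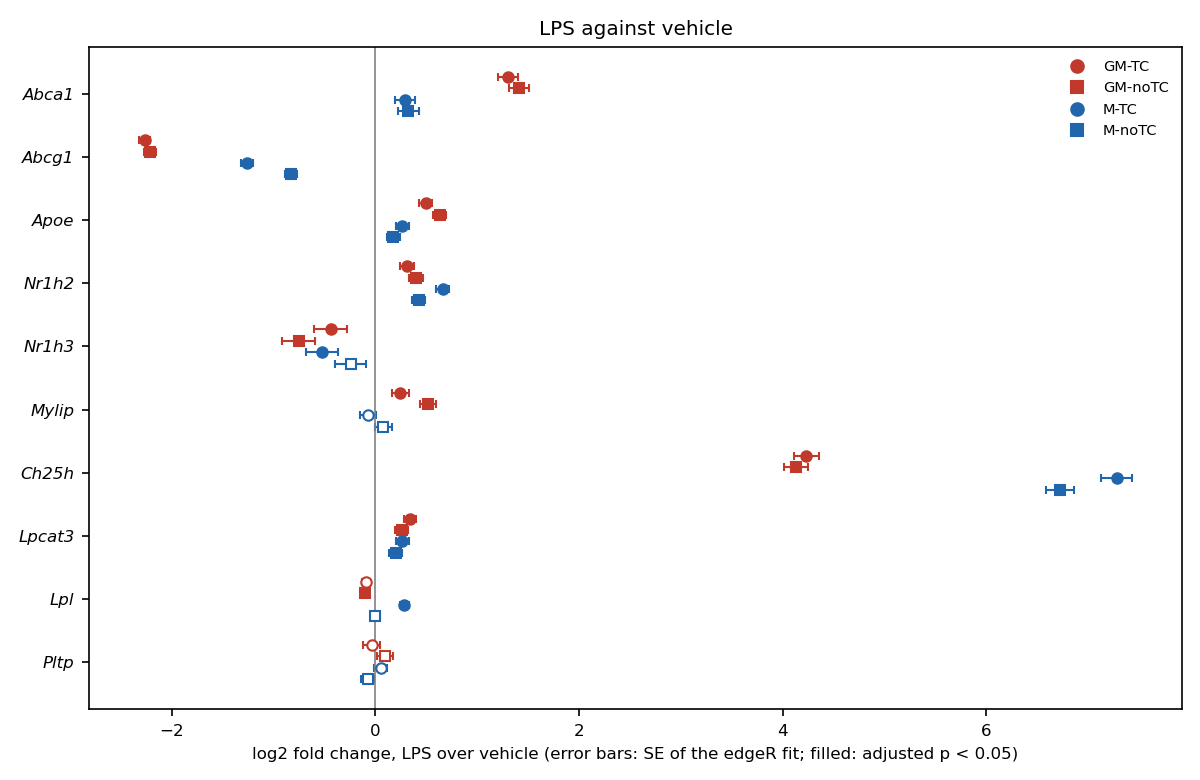
Log2 fold change of each gene, LPS over vehicle, in the 4 kinds of culture, from edgeR on TMM-scaled counts with standard errors as bars and filled symbols for an adjusted p under 0.05. Abca1 rises by 1.3 and 1.41 in GM, Abcg1 falls everywhere and Ch25h rises by 4.13 to 7.28, whereas small rises such as those of Nr1h2 and Lpcat3, and of Abca1 in M, turn negative with scaling by library size alone.

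The second question was how these genes differed between the growth factors. By the authors' methods, GM-CSF cultures were seeded more densely than M-CSF cultures, so growth factor and seeding density cannot be told apart. At steady state GM-BMDMs had more Abcg1, Lpl and Ch25h than M-BMDMs and less Apoe and Pltp, on both dishes. Upon LPS the difference in Ch25h had the opposite sign. Abca1 was higher in GM on noTC dishes with and without LPS, and on TC dishes upon LPS. Among the 10 genes, 4 were higher and 3 lower in GM-TC than in M-TC, 5 and 3 in GM-noTC than in M-noTC, and 4 and 4 in each comparison upon LPS. Of all tested genes, 61.5%, 62.1%, 66.8% and 66.1% were called (32.6%, 31.4%, 33.9% and 33.5% higher in GM, and 28.9%, 30.7%, 32.9% and 32.6% lower), so that a share of 7 or 8 in 10 was not far from the background. At a fold above 2 it was 5, 4, 2 and 3 of the 10, beside 21.8%, 22.2%, 25% and 24.5% of all genes. Library size alone gave 4 higher and 6 lower on TC dishes and 4 and 4 on noTC dishes at steady state, while the share of genes lower in GM among all calls went from 47% and 49.4% to 72.1% and 72.5%. These comparisons use the same libraries as those of LPS.

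Apoe (ENSMUSG00000002985) had 258 and 272 CPM in GM-TC and 236 and 242 CPM in GM-noTC, against 2584 and 2579 CPM in M-TC and 827 and 932 CPM in M-noTC. Upon LPS it had 371 and 376 CPM in GM-TC-LPS and 364 and 377 CPM in GM-noTC-LPS, against 3166 and 3038 CPM in M-TC-LPS and 914 and 1075 CPM in M-noTC-LPS. No GM library came near an M library. The log2 fold changes of GM over M were -3.28 ± 0.07 on TC, -1.88 ± 0.07 on noTC, -3.05 ± 0.07 on TC with LPS and -1.42 ± 0.06 on noTC with LPS (SE, adjusted p = 1.48e-20, 1.22e-16, 5.37e-20 and 1.47e-14 by edgeR).

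Pltp (ENSMUSG00000017754) differed by growth factor. It lay between 24.1 and 30.4 CPM in the 8 GM libraries and between 153 and 174 CPM in the 8 M libraries. The log2 fold changes of GM over M were -2.58 ± 0.07, -2.59 ± 0.07, -2.67 ± 0.07 and -2.41 ± 0.07 in the same order (SE, adjusted p = 2.16e-18, 1.47e-18, 1.85e-18 and 8.54e-18 by edgeR), and no interaction with dish or LPS was called for it on this scaling. With library size alone its interaction of growth factor and LPS was called, at 0.26 on TC and 0.39 on noTC dishes (adjusted p = 0.0476 and 0.00427), and without GM-TC-LPS replicate 2 that of dish and growth factor upon LPS (0.39, adjusted p = 0.0311). Lpl (ENSMUSG00000015568) had 4336 and 4349 CPM in GM-TC and 5107 and 4972 CPM in GM-noTC, against 1707 and 1658 CPM in M-TC and 3640 and 3658 CPM in M-noTC. GM exceeded M on both dishes, by a log2 fold change of 1.37 ± 0.04 on TC and 0.47 ± 0.04 on noTC dishes, and by 0.99 ± 0.04 and 0.36 ± 0.04 upon LPS (SE, adjusted p = 1.36e-17, 1.77e-09, 4.09e-15 and 9.5e-08 by edgeR).

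Abcg1 was higher in GM by 1.79 ± 0.06 on TC and 2.05 ± 0.06 on noTC dishes at steady state, and by 0.78 ± 0.06 and 0.66 ± 0.06 upon LPS (log2, SE, adjusted p = 1.98e-17, 1.88e-18, 1.39e-10 and 2.23e-09 by edgeR). For Abca1 the difference between GM-TC and M-TC was not called (-0.07 ± 0.10, adjusted p = 0.58), and the libraries overlapped. Without GM-TC replicate 1, which had 164 CPM against 128 in the other, it was -0.27 (adjusted p = 0.00937), and with library size alone -0.38 (adjusted p = 0.00294). Abca1 was higher in GM on noTC dishes (0.85 ± 0.10) and upon LPS on TC (0.95 ± 0.10) and noTC dishes (1.93 ± 0.10), with adjusted p = 1.46e-07, 1.47e-08 and 1.74e-13 by edgeR. Ch25h was higher in GM at steady state, by 2.44 ± 0.24 on TC and 2.09 ± 0.19 on noTC dishes, and lower upon LPS, with -0.61 ± 0.09 and -0.50 ± 0.09 (log2, SE, adjusted p = 8.89e-09, 2.33e-09, 2.43e-06 and 2.71e-05 by edgeR).

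The remaining genes differed less. Lpcat3 was higher in GM in all 4 comparisons, with log2 fold changes between 0.34 and 0.61 (adjusted p at most 4.44e-05 by edgeR), and with library size alone that on noTC dishes at steady state was 0.05 (adjusted p = 0.45). Mylip was lower in GM at steady state, with log2 fold changes of -0.31 ± 0.08 on TC and -0.28 ± 0.08 on noTC dishes (SE, adjusted p = 0.00159 and 0.00437 by edgeR) and was not called upon LPS (0.01 and 0.16, adjusted p = 0.908 and 0.0914). The call on noTC dishes ended without GM-noTC replicate 1 (-0.21, adjusted p = 0.0799). Nr1h2 was lower in GM-TC-LPS than in M-TC-LPS (-0.46 ± 0.07, adjusted p = 2.76e-06 by edgeR), and with library size alone also at steady state, with -0.42 on TC and -0.28 on noTC dishes (adjusted p = 1.71e-05 and 0.000866). Nr1h3 was lower in GM-noTC-LPS than in M-noTC-LPS (-0.49 ± 0.18, adjusted p = 0.019 by edgeR), a call that DESeq2 did not make (adjusted p = 0.0588) and that ended without replicate 1 of either group (adjusted p = 0.108 and 0.0911). On library size alone Nr1h3 was also called lower in GM-TC than in M-TC (-0.56, adjusted p = 0.00219). The 8 neutrophil markers summed to between 14.4 and 35.5 CPM in GM libraries and to at most 1.73 CPM in M libraries. Elane, Mpo and Ly6g were at 0 in every M group and also low in GM groups, with means of at most 0.392 CPM. Most of the GM sum came from Ngp, S100a9, S100a8 and Ltf, at 7.13, 3.52, 2.84 and 2.48 CPM in GM-TC. The 6 dendritic cell markers summed to between 47.1 and 66.1 CPM in GM libraries and to between 1.38 and 3.66 CPM in M libraries. In GM-TC and M-TC, Clec9a had 35.2 and 0.345 CPM, Ccr7 10.5 and 0.0521, Zbtb46 1.96 and 0.511, and Flt3 0.181 and 0.0521. Xcr1, at 0.242 and 0.269 CPM, and Siglech, at 0.0285 and 0.244 CPM, were not higher in GM-TC. The part of either list in these differences was not tested.

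**Figure D3:**
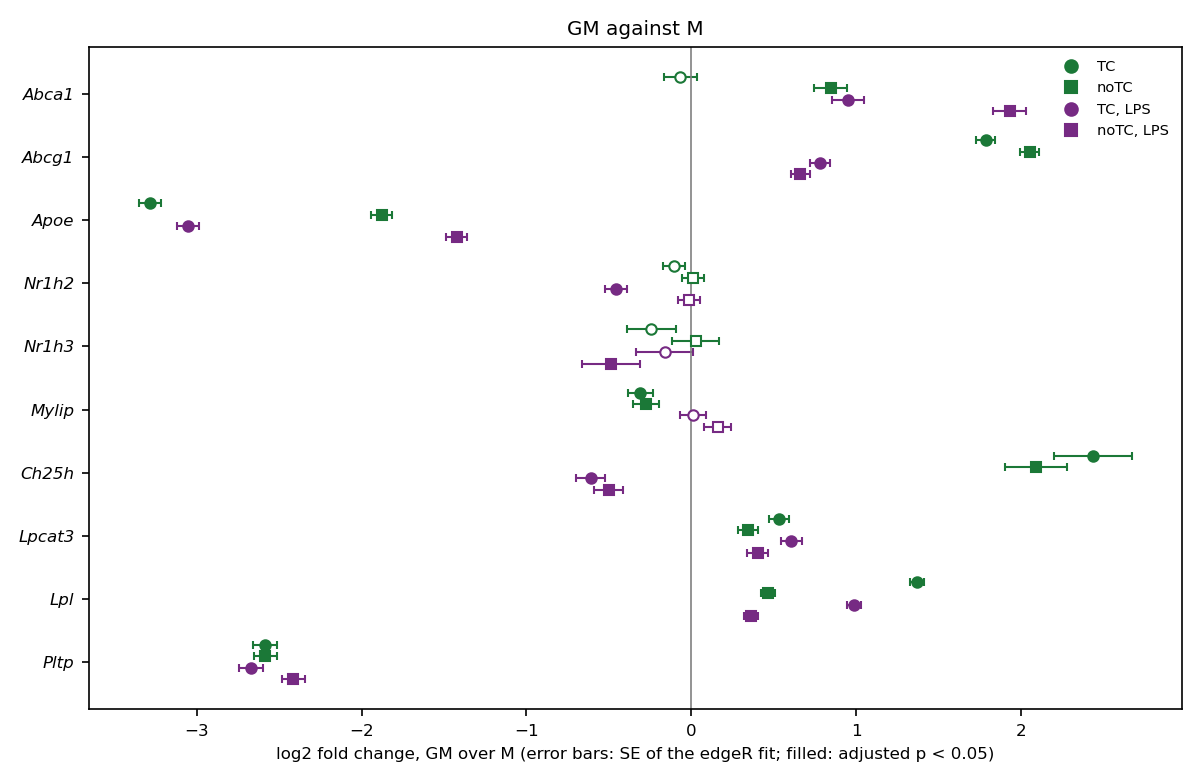
Log2 fold change of each gene, GM over M, on the 2 dishes at steady state (green) and upon LPS (purple), from edgeR with standard errors as bars and filled symbols for an adjusted p under 0.05. Apoe and Pltp lie between -3.28 and -1.42, Abcg1 and Lpl to the right of 0, and Ch25h passes from 2.44 and 2.09 at steady state to -0.61 and -0.50 upon LPS.

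The last question was what the dish did. In M-BMDMs the untreated dish went with less Abca1 and Apoe and more Lpl, with or without LPS, while in GM-BMDMs changes were small. Of the 10 genes, 2 were higher and 4 lower in M-noTC than in M-TC, where 27.2% of all tested genes were called (16.1% higher, 11.1% lower), and 1 was higher and 4 lower in M-noTC-LPS than in M-TC-LPS, where 23.3% were (10.4% higher, 12.9% lower). At a fold above 2 they were 3 of 10 and 1 of 10, beside 3.45% and 1.81% of all genes. Library size alone gave 2 higher and 3 lower in M-noTC-LPS than in M-TC-LPS, and moved the share of lower genes among all calls there from 55.5% to 29.5%. In GM, 1 was higher and 2 lower at steady state (4.69% and 2.85% of all genes, 7.54% in all) and 1 higher and none lower upon LPS (2.08% and 0.727%, 2.8% in all), with 1 lower at an unadjusted p under 0.05. In a fit to the 4 libraries of GM-noTC and GM-TC alone none of the 10 was called in GM at steady state, with 4 at an unadjusted p under 0.05 by edgeR. Without GM-noTC replicate 1 none was called either. Upon LPS the only call in GM, that of Lpl, ended without GM-TC-LPS replicate 1 or 2 or GM-noTC-LPS replicate 2.

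Abca1 in M-noTC (71.9 and 78.3 CPM) was about as far below M-TC (145 and 160 CPM) as M-noTC-LPS (105 and 83.4 CPM) was below M-TC-LPS (198 and 175 CPM). Neither pair of groups overlapped. The log2 fold changes were -1.02 ± 0.10 at steady state and -0.98 ± 0.10 upon LPS (SE, adjusted p = 7.42e-08 and 2.91e-07 by edgeR). In GM they were -0.11 ± 0.10 and 0.00 ± 0.09 (adjusted p = 0.592 and 0.996), and the difference between GM and M was 0.91 ± 0.14 and 0.98 ± 0.14 (SE, adjusted p = 0.000127 and 4.93e-05 by edgeR).

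Apoe, with the values above, was lower on noTC dishes in M, with log2 fold changes of -1.55 ± 0.06 at steady state and -1.64 ± 0.06 upon LPS (SE, adjusted p = 1.8e-13 and 3.89e-13 by edgeR). In GM it was -0.15 ± 0.06 and -0.01 ± 0.06 (adjusted p = 0.19 and 0.973), and GM differed from M by 1.40 ± 0.09 and 1.63 ± 0.09 (SE, adjusted p = 8.48e-10 and 3.25e-10 by edgeR). Lpl went the other way. It rose on noTC dishes by 1.12 ± 0.04 in M and 0.21 ± 0.04 in GM at steady state and by 0.83 ± 0.04 and 0.20 ± 0.04 upon LPS (log2, SE, adjusted p = 8.42e-14, 0.00169, 1.98e-11 and 0.00594 by edgeR). The effect was larger in M, with differences of -0.90 ± 0.06 and -0.63 ± 0.06 (GM minus M, SE, adjusted p = 9.31e-10 and 2.74e-07 by edgeR), and in M the dish effect upon LPS minus that at steady state was -0.29 ± 0.06 (adjusted p = 0.00268). The markers of heart muscle, a tissue that makes Lpl, had their highest sums (22.2 to 77.9 CPM) on TC dishes without LPS, and upon LPS summed to at most 0.633 CPM in any library. Their part in the Lpl values was not tested.

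Abcg1 was lower on noTC dishes at steady state, with log2 fold changes of -0.48 ± 0.06 in M and -0.21 ± 0.05 in GM (SE, adjusted p = 9.12e-07 and 0.0155 by edgeR), and upon LPS it was -0.05 ± 0.06 and -0.16 ± 0.06 (adjusted p = 0.649 and 0.165). In M the effects before and upon LPS differed by 0.44 ± 0.08 (SE, adjusted p = 0.00147 by edgeR). Mylip was lower on noTC dishes, with -0.46 ± 0.07 in M-noTC, -0.43 ± 0.08 in GM-noTC and -0.31 ± 0.08 in M-noTC-LPS (SE, adjusted p = 6.32e-05, 0.00151 and 0.00853 by edgeR). The last call ended with library size alone (-0.22, adjusted p = 0.0576) and without replicate 2 of M-TC-LPS or of M-noTC-LPS (adjusted p = 0.0646 and 0.0716). Nr1h2 was lower in M-noTC-LPS than in M-TC-LPS, with -0.35 ± 0.07 (SE, adjusted p = 0.000414 by edgeR). Lpcat3 was higher in M-noTC by 0.21 ± 0.06 (SE, adjusted p = 0.016 by edgeR), a call that ended without any 1 of the 4 libraries (adjusted p = 0.0564 to 0.154). Ch25h in M-noTC was 0.59 ± 0.29 above M-TC (SE, adjusted p = 0.141 by edgeR), and without the expression filter its adjusted p was 0.0364. With the share of other libraries subtracted from the noTC libraries, the Ch25h difference was 0.18.

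Interactions of dish with LPS were called for 0 of the 10 genes in GM, with 1 at an unadjusted p under 0.05 by edgeR and 0 by DESeq2, where 0.783% of all genes were called. In M they were called for 2 of the 10, Abcg1 and Lpl, beside 10.6% of all genes. Interactions of dish with growth factor were called for 4 of the 10 both at steady state and upon LPS, beside 11.2% and 10.6% of all genes. Library size alone moved the share of negative differences among all calls from 70.6% to 38.9% for dish by LPS in M and from 35% to 67.1% for dish by growth factor upon LPS, with the 2 Abcg1 and Lpl calls in M again of opposite sign.

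**Figure D4:**
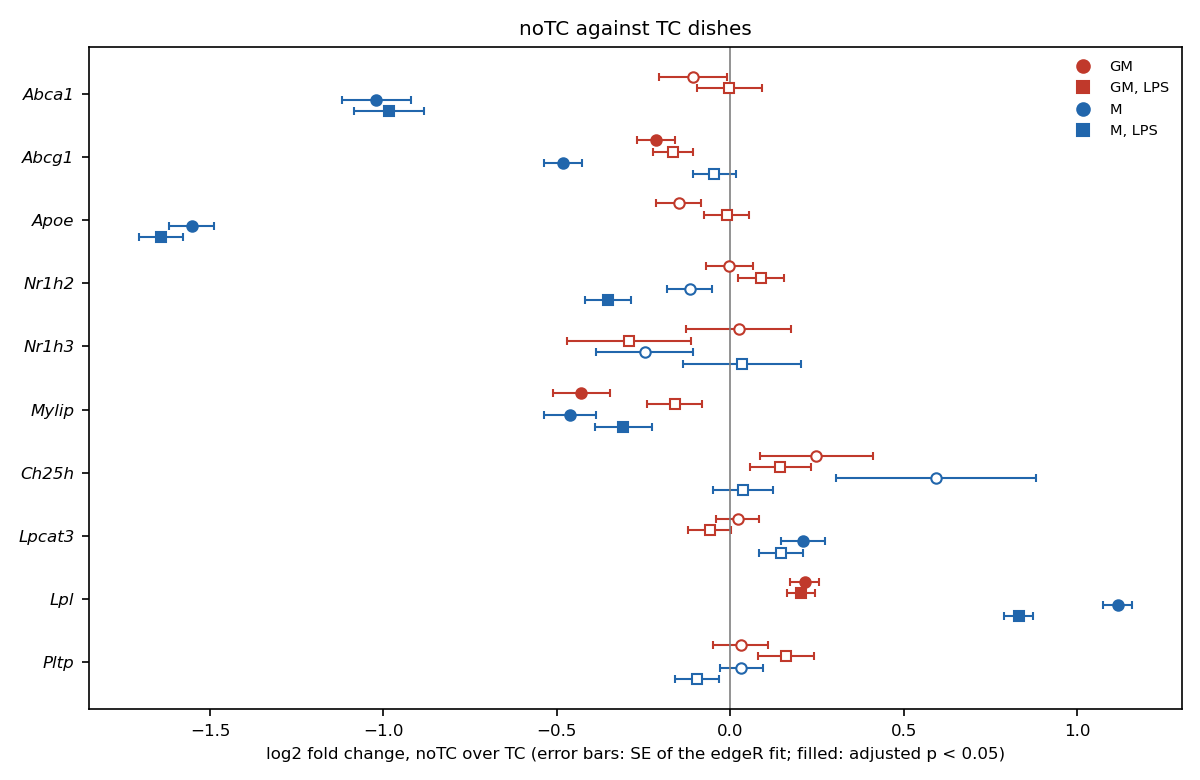
Log2 fold change of each gene, noTC over TC dishes, in GM (red) and M (blue) at steady state (circles) and upon LPS (squares), from edgeR with standard errors as bars and filled symbols for an adjusted p under 0.05. In M, Abca1 and Apoe lie between -1.64 and -0.98 and Lpl at 1.12 and 0.83, while the GM symbols lie between -0.43 and 0.25.

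Other genes of the pathway were read from lists of known members. Of 10 partners and coregulators of LXR, 3, 3, 1 and 1 rose and 4, 4, 6 and 8 fell upon LPS, in the order GM on TC, GM on noTC, M on TC and M on noTC dishes. Beside these and the counts of the lists that follow, 32.8%, 33.6%, 37.6% and 36.4% of all tested genes rose and 34.2%, 34%, 36.4% and 35.9% fell. Under library size alone 1 partner rose in each culture and 7, 7, 9 and 9 fell. Rxra, the DNA-binding partner of LXR, fell from 116 ± 6.62 to 30.9 ± 0.131 CPM in GM-TC, from 112 ± 0.947 to 34.1 ± 1.85 in GM-noTC, from 54.5 ± 0.213 to 8.33 ± 0.268 in M-TC and from 32.0 ± 1.40 to 7.29 ± 0.505 in M-noTC (SD, n = 2). Its log2 fold changes lay between -1.71 and -2.71 (adjusted p at most 6.78e-16 by edgeR), and it was higher in GM than in M in all 4 comparisons, by 1.08 to 2.23. More of the 10 partners were lower than higher in GM, with 1, 2, 3 and 3 higher and 7, 5, 6 and 6 lower. The order is TC and noTC dishes at steady state, then TC and noTC dishes upon LPS. Library size alone made these 1, 1, 3 and 3, and 9, 8, 6 and 6. Of all tested genes, 32.6%, 31.4%, 33.9% and 33.5% were higher and 28.9%, 30.7%, 32.9% and 32.6% lower.

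Of 18 other LXR targets, 14 were tested, and 2, 4, 3 and 2 rose and 8, 9, 8 and 7 fell upon LPS in the same order, or 2, 2, 0 and 2 and 11, 11, 13 and 12 with library size alone. Srebf1, the regulator of fatty acid synthesis, fell in M-noTC and GM-noTC, with log2 fold changes of -0.54 ± 0.08 and -0.26 ± 0.08 (SE, adjusted p = 1.6e-06 and 0.00595 by edgeR). In M-TC it was -0.18 ± 0.08, with adjusted p = 0.0456 or, with a replicate block, 0.05, and in GM-TC -0.13 ± 0.08 (adjusted p = 0.163). Scd2, a desaturase of fatty acids, fell with log2 fold changes of -1.77 ± 0.08, -1.93 ± 0.08, -2.72 ± 0.09 and -2.86 ± 0.09 in the same order (SE, adjusted p at most 1.9e-14 by edgeR). Its relative Scd1 was higher in GM, with 363 ± 8.60 CPM in GM-TC and 31.7 ± 0.643 in M-TC (SD, n = 2), and log2 fold changes of 2.73 to 3.63 over the 4 comparisons (adjusted p at most 2.49e-20 by edgeR). Cd5l, a secreted protein of macrophages, was higher in M, at 4.55 ± 0.340 CPM in M-TC and 0.746 ± 0.0872 in GM-TC (SD, n = 2), with log2 fold changes of GM over M between -2.61 and -4.00 (adjusted p at most 2.54e-08 by edgeR). Among the 14, those higher in GM than in M numbered 6, 6, 5 and 6 and those lower 5, 5, 6 and 6. The order is TC and noTC dishes at steady state, then TC and noTC dishes upon LPS. Library size alone made these 5, 5, 5 and 6, and 8, 6, 5 and 6. The shares of all genes are given with the partners of LXR. On noTC dishes 8 of the 14 rose and 3 fell in M at steady state, beside 16.1% and 11.1% of all tested genes. Upon LPS 7 rose and 3 fell in M, beside 10.4% and 12.9%. In GM, 3 rose and 0 fell at steady state, beside 4.69% and 2.85%, and 0 rose and 1 fell upon LPS, beside 2.08% and 0.727%.

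Of 18 genes of sterol uptake, storage and transport, 17 were tested, and 5, 5, 6 and 5 rose and 7, 9, 10 and 8 fell upon LPS, or 2 rose in each and 11, 12, 14 and 14 fell with library size alone. Soat1, which esterifies cholesterol for storage, fell with log2 fold changes of -1.17 ± 0.05, -1.09 ± 0.05, -1.35 ± 0.05 and -1.13 ± 0.05, and Scarb1, a receptor for high-density lipoprotein, fell with -0.41 ± 0.06, -0.30 ± 0.06, -0.50 ± 0.06 and -0.48 ± 0.06 (SE, adjusted p at most 6.41e-05 by edgeR). Soat1 was higher in GM than in M by 1.09 to 1.27. Among the 17 genes, those higher in GM numbered 6, 5, 5 and 7 and those lower 5, 6, 6 and 7. The order is TC and noTC dishes at steady state, then TC and noTC dishes upon LPS. Library size alone made these 3, 4, 5 and 7, and 10, 11, 6 and 9. The shares of all genes are given with the partners of LXR. Cyp27a1, which makes 27-hydroxycholesterol, was at 25.0 ± 1.41 CPM in M-TC and 12.2 ± 0.681 in M-noTC (SD, n = 2), a log2 fold change of -1.04 ± 0.10 (SE, adjusted p = 5.87e-08 by edgeR). In that comparison 3 of the 17 were higher on noTC dishes and 2 lower, beside 16.1% and 11.1% of all genes, or 2 and 3 with library size alone. Abcg4, a close relative of Abcg1, had between 0.605 and 3.87 CPM in GM groups and at most 0.178 CPM in M groups. Cyp7b1, which breaks down 25-hydroxycholesterol, had at most 0.235 CPM in any group and was not tested.

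Of 16 genes of the SREBP2 pathway, which makes cholesterol, 15 were tested. In M-TC 11 rose and 4 fell upon LPS and in M-noTC 10 rose and 5 fell. In GM-TC 6 rose and 6 fell and in GM-noTC 5 rose and 6 fell, and the difference between M and GM was not tested for the list. Scaled by library size alone, 4 rose and 8 fell in M-TC, 2 rose and 12 fell in M-noTC and in GM-TC, and 1 rose and 11 fell in GM-noTC. Insig1, which holds SREBP2 back, had log2 fold changes of 0.35 ± 0.05, 0.47 ± 0.05, 0.79 ± 0.05 and 0.38 ± 0.05 (SE, adjusted p at most 3.41e-06 by edgeR), all negative with library size alone. Idi1 rose by 1.05 to 1.28 and Dhcr7 fell, with -1.39 to -1.05, in the 4 cultures (log2), although both are enzymes of this pathway (adjusted p at most 1.1e-11 by edgeR). Dhcr7 was also higher in GM than in M, by 1.17 to 1.59. Upon LPS most of the list went the other way, with 4 of the 15 higher in GM and 11 lower on each dish. At steady state 9 were higher and 3 lower on TC dishes, and 6 and 6 on noTC dishes. Library size alone made these 4 and 6, and 2 and 10. The shares of all genes are given with the partners of LXR. In M-noTC against M-TC, 8 rose and 0 fell, beside 16.1% and 11.1% of all genes. Upon LPS 1 rose and 6 fell, beside 10.4% and 12.9%, or 4 and 1 with library size alone.

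Of 9 partners of Lpl, 5 were tested, with 2 up and 1 down upon LPS in each culture, a share near that of all genes, or 1 up and 3, 3, 4 and 2 down with library size alone. Furin, a protease that cleaves Lpl, rose by 1.16 ± 0.05, 1.02 ± 0.05, 1.72 ± 0.06 and 1.97 ± 0.06 (log2, SE, adjusted p at most 1.02e-13 by edgeR). Angptl4, an inhibitor of Lpl, fell from 5.70 to 0.450 CPM in GM-TC, from 6.30 to 0.162 in GM-noTC, from 1.45 to 0.0291 in M-TC and from 2.01 to 0.0499 in M-noTC, with adjusted p at most 4.56e-07 by edgeR. The M-BMDM levels upon LPS were under the floor of 3 counts. Of the 6 relatives of Lpcat3, 5 were tested, and Lpcat2 rose by 1.82 ± 0.06, 1.72 ± 0.06, 1.21 ± 0.05 and 1.18 ± 0.05 (log2, SE, adjusted p at most 8.89e-15 by edgeR), while 0, 0, 1 and 2 others rose and 3, 3, 1 and 2 fell. When scaled by library size, Lpcat2 was the gene that rose and the other 4 fell in each culture.

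Genes whose pattern was most like that of a member were those with the smallest root mean square (RMS) difference of centred log2 levels over the 8 group means. Among about 7826 tested genes at 10 CPM or more, they were Il17ra and Atrnl1 for Abca1 (RMS 0.23 and 0.25), Pdgfa and Tmem64 for Abcg1 (0.23 and 0.28), and Selenop and Tmem176a for Apoe (0.30 and 0.34). For Ch25h they were Serpina3g and Socs1 (0.19 and 0.28), for Lpl Ccne1 and Car5b (0.18 and 0.20), and for Pltp Limd2 and Inppl1 (0.19 and 0.21). Among the 10 genes themselves, the exporters Abca1 and Abcg1 lay 1.40 apart on this measure and Apoe and Pltp 0.60 apart, while the closest pair was Nr1h2 and Mylip at 0.24. The points are 8 group means that share libraries and scaling, and the measure is a description.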

How the data were processed

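Poly(A) RNA of 16 libraries was sequenced on an Illumina NovaSeq6000 instrument. Reads were aligned with HISAT by the authors, who estimated expression with RSEM. Their deposited values are expected counts per gene (22287 genes), not normalized. The submitters' processing notes also list fastp 0.18.0, Bowtie2 2.2.8 and StringTie 1.3.1, and the genome build is not given in the sources used here. Groups and replicates came from the sample labels. Fractional values, which made up 6.56% to 8.19% of a library's genes, were rounded with the rest to whole counts.

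Genes were filtered by group, scaled with TMM factors and fitted over all 16 libraries with edgeR 4.0.16 (R 4.3.3, quasi-likelihood, no block, biological coefficient of variation 4.75%). P-values were Benjamini-Hochberg adjusted over 12514 genes, and a gene was called at an adjusted p under 0.05. Alternatives were DESeq2 1.42.0, its size factors, library size only, no filter, only the libraries compared, a replicate block and each library left out. Another subtracted the share of the mean in other libraries, given with the depths, from the noTC steady state libraries, whatever its origin. In simulated counts for GM-TC-LPS against GM-TC over 12514 genes, edgeR called 79 of 100 genes changed 2-fold. It also called 80 of 100 changed by 0.585 in log2, and 16 unchanged genes. Only GM-TC-LPS was given changes, in few genes and with as many up as down. A shift in the scaling between vehicle and LPS and the other comparisons were therefore not simulated. Exon lengths and overlaps came from GENCODE M21. The genes, lists and tests were chosen with earlier results of these data known. Named in every comparison were the 10 genes. Of the lists, named genes had a fold above 2 in 1 direction in all 4 LPS or all 4 growth factor comparisons, or belonged to 11 fixed genes of sterol handling, and likeness was given as the 2 nearest genes. Some genes that this rule names are not reported here, and they stay in the list counts.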

Additional observations from a re-analysis of the deposited data

Results flagged for a closer look

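The effects below differed between groups by edgeR's test of the interaction. For LPS, log2 fold changes in GM minus those in M on TC dishes were 1.02 ± 0.14 for Abca1, -1.0 ± 0.08 for Abcg1, 0.23 ± 0.09 for Apoe, -0.35 ± 0.09 for Nr1h2, 0.32 ± 0.11 for Mylip, -3.05 ± 0.25 for Ch25h and -0.38 ± 0.06 for Lpl (SE). On noTC dishes they were 1.09 ± 0.14 for Abca1, -1.39 ± 0.08 for Abcg1, 0.46 ± 0.09 for Apoe, 0.44 ± 0.11 for Mylip and -2.59 ± 0.21 for Ch25h. Adjusted p-values lay between 1.04e-11 for Abcg1 on noTC and 0.0455 for Apoe on TC dishes. With library size alone that of Nr1h2 was -0.01 and that of Lpl -0.03, and neither was called. That of Mylip on TC dishes was not called by DESeq2 (adjusted p = 0.0789) or in 4 of 8 edgeR fits with 1 library left out, and that of Apoe on TC dishes in 7 of 8.

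Between dishes (noTC minus TC), the LPS effect in M differed by 0.44 ± 0.08 for Abcg1 and -0.29 ± 0.06 for Lpl. The dish effect in GM minus that in M at steady state was 0.91 ± 0.14 for Abca1, 0.27 ± 0.08 for Abcg1, 1.40 ± 0.09 for Apoe and -0.90 ± 0.06 for Lpl. Upon LPS it was 0.98 ± 0.14 for Abca1, 1.63 ± 0.09 for Apoe, 0.44 ± 0.09 for Nr1h2 and -0.63 ± 0.06 for Lpl. Adjusted p-values by edgeR lay between 3.25e-10 and 0.0279, the latter for Abcg1, whose call ended in 5 of 8 fits with 1 library left out. Groups of 2 libraries were too small for a test of outlying samples, and the replicates of GM-TC stood furthest apart (chi-square over degrees of freedom 12.9, against 1.92 to 5.28 elsewhere).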

How the results depend on the processing

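Scaling by library size alone was the alternative that reversed directions. Upon LPS in GM-TC it gave log2 fold changes of -0.17 (Nr1h2), -0.23 (Mylip), -0.14 (Lpcat3) and -0.13 (Insig1). In GM-noTC they were -0.11 (Nr1h2), -0.25 (Lpcat3), -0.41 (Pltp) and -0.034 (Insig1). In M-TC they were -0.54 (Abca1), -0.56 (Apoe), -0.16 (Nr1h2), -0.56 (Lpcat3), -0.54 (Lpl), -0.77 (Pltp) and -0.037 (Insig1). In M-noTC they were -0.40 (Abca1), -0.55 (Apoe), -0.30 (Nr1h2), -0.64 (Mylip), -0.52 (Lpcat3), -0.73 (Lpl), -0.51 (Cyp27a1) and -0.34 (Insig1). For GM over M on noTC dishes it gave -0.28 (Nr1h2), and 0.26 for Pltp in the interaction of growth factor and LPS on TC dishes. It called 10 of the 10 genes in M-noTC upon LPS, in place of 6. These follow the shifts of the median of all genes given with the depths.

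In a fit to its own libraries, 0 of the 10 genes were called in GM-noTC against GM-TC (4 at an unadjusted p under 0.05), in place of 3. With 1 library left out, between 0 and 3 were called in that comparison and between 0 and 1 in GM-noTC-LPS against GM-TC-LPS, by edgeR, where the lone library was assumed to vary like the other groups. The cause was not tested. The numbers of genes called in the other comparisons and interactions stayed within 1.5 times under every alternative, apart from that with library size in M-noTC.

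Libraries with the same replicate number did not deviate together (r across genes, which are not independent, between -0.064 and 0.036 over 12 comparisons), so the numbers were not taken as pairs. With the replicate block, 3 of the 10 genes were called in GM-noTC against GM-TC and 6 in M-noTC against M-TC, as without it. No call among the 10 genes changed under the block, and of the other named genes Srebf1 lost its call upon LPS in M-TC and in GM-TC-LPS against M-TC-LPS. Depth limited Ch25h in M-BMDMs at steady state, Nr1h3, Angptl4 and Abcg4.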
